A study of Mus musculus with 6 samples.

Results

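The 2′,5′-oligoadenylate synthetases (OAS) were followed in mouse embryonic fibroblasts labelled wild type or Lasp1 knockout. The members were 8 genes (Oas1a, Oas1b, Oas1c, Oas1g, Oas2, Oas3, Oasl1 and Oasl2), and every probe carrying one of these symbols in the supplied annotation was taken, which gave 18 of 45281 probes and 8 of 19057 genes. Fibroblasts of the C57Bl/6NCr strain were either Lasp1+/+ (wild type, 3 arrays) or Lasp1-/- (Lasp1 knockout, 3 arrays). Total RNA was labelled with biotin and hybridised to Illumina bead arrays. No treatment is given for either genotype. The labels name neither separate embryos nor separate cultures, so every p-value below rests on array-to-array spread that could be technical.

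OAS proteins are sensors of double-stranded RNA. On binding it, the active members join ATP into short oligoadenylates, messengers that set off the breakdown of viral and cellular RNA and slow translation. The genes are classical targets of type I interferon and are expressed at a low level in uninfected fibroblasts. The family holds active enzymes as well as members that have lost the catalytic activity and act in other ways.

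Oasl2 was 3.50-fold lower in Lasp1 knockout fibroblasts, and Oasl1 and Oas1g were 1.37-fold and 1.30-fold lower. These 3 of 8 genes passed limma's test at an adjusted p under 0.05, beside 4.08% of all genes called lower, and 0 of 8 rose, beside 2.19% of all genes called higher. Oas2 and Oas1b lay lower in every knockout array without passing (log2 differences of -0.46 and -0.47), and Oas1a, Oas1c and Oas3 read below the array median in both genotypes. Of the 8 genes, 5 had all knockout arrays below all wild-type arrays, as did 14.0% of all genes. The median log2 difference of the 8 members was -0.42, against -0.02 over all genes. The measured paralogs Oas1d, Oas1e, Oas1f and Oas1h were not members and do not enter this median. They read near or below the array median, with log2 differences of -0.05 to 0.09.

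All 8 members lie on mouse chromosome 5 in the RefSeq gene table of assembly GRCm38.p6, with Oasl2 beside Oasl1 and the other members in a separate cluster. The arrays' own genome build is not given in the sources used here. RefSeq promoter windows (250 bases before to 50 after the gene's start, GRCm38.p6) were found for 6 of the 8 members. The bases just before the start are shown because the members differ there in a sequence class that interferon-activated factors are known to bind. Each line gives the 150 bases before the start, 5′ to 3′ on the gene's strand, and capitals mark matches to GAAANNGAAA, the core of the interferon-stimulated response element, on either strand.
Oasl2 (chr5:114896784-114896933, plus strand): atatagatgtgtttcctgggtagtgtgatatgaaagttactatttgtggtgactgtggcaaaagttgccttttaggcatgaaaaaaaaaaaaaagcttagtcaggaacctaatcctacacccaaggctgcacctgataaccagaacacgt
Oasl1 (chr5:114923090-114923239, plus strand): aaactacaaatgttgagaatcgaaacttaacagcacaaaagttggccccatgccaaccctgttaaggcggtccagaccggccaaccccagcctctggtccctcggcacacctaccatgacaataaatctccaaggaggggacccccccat
Oas1g (chr5:120887614-120887763, minus strand): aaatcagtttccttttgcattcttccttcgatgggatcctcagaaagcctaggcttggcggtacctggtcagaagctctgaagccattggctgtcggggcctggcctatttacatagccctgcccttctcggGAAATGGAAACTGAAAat
Oas1a (chr5:120907526-120907675, minus strand): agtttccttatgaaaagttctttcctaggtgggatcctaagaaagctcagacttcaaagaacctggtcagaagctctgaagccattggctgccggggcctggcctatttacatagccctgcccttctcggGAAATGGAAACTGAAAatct
Oas1c (chr5:120812515-120812664, minus strand): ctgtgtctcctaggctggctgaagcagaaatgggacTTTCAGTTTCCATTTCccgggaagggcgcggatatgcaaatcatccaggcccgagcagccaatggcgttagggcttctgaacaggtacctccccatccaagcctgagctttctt
Oas3 (chr5:120777660-120777809, minus strand): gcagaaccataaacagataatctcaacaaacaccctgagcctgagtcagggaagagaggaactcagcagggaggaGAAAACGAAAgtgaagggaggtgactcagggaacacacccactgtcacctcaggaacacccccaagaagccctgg

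The core was found in 4 of the 6 windows, and in 3.44% of 32851 RefSeq promoter windows of the same length. Oas1a, Oas1c and Oas1g each held 2 matches that overlap each other, and Oas3 held 1. The windows of Oas1a and Oas1g shared an unbroken run of 73 bases that includes the matches. The windows of Oasl2 and Oasl1, the members with the smallest p, held none of these letters. A second motif, TTCNNNGAA (the core of the gamma-activated site, the same on both strands), was found in 1 of the 6 member windows, that of Oas1a, and in 8.30% of all windows. A match is a description of letters, and no match says only that these letters are not in this window.

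The targeted gene was checked before the members. Lasp1 at its brightest probe read 135295, 148208 and 148809 in wild type and 51904, 51019 and 49770 in the knockout, 2.83-fold lower with no overlap. A second probe was 4.10-fold lower (limma adjusted p = 0.00018 over all probes), and the third, near the array median, was 1.20-fold lower without passing (limma adjusted p = 0.121 over all probes). The brightest probe still read 50898 on average in the knockout, and the position of each probe against the disruption is not known here, so signal there does not by itself check the genotype. The median intensity was 1000 in each of the 6 arrays, and the values were not background subtracted to 0. No control probes or detection calls were used, so the background level was not measured. With a smallest value of 593, a probe near 1000 is taken to carry mostly background light. Its fold would then understate any change in the transcript. Precision is limited by the 3 arrays in each group. In whole-culture RNA, fewer cells of a type and less RNA per cell cannot be told apart.

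Oasl2 encodes an OAS-like protein with ubiquitin-like domains at its end, and the mouse protein retains synthetase activity. Its brightest probe (ILMN_2954868) read 4991, 7701 and 6889 in the wild-type arrays and 1739.5, 2168 and 1631 in the knockout arrays. Every knockout array lay below every wild-type array, and the lowest wild-type array was replicate 1. The means were 6527 ± 1391 and 1846 ± 284 (SD, n = 3 each), a log2 difference of -1.81 ± 0.16 (SE) with a limma adjusted p of 0.000295. A second Oasl2 probe (ILMN_2599154) for the same transcript read 2002, 2852 and 2883 in wild type and 1164, 1139 and 1236 in the knockout. It fell as well, by 1.11 ± 0.13 (SE) on the log2 scale (limma adjusted p = 0.00179 over all probes). The third probe (ILMN_2552783), annotated to a separate cDNA, stayed under the array median in all 6 arrays, at 908 to 998 in wild type and 807 to 894 in the knockout. Its groups also did not overlap, but it did not pass (limma adjusted p = 0.317 over all probes). The mean over the 3 probes fell by 1.03 on the log2 scale, against 1.81 at the brightest probe, a ratio of 1.76.

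Oasl1 encodes the other OAS-like protein of the mouse, which lacks synthetase activity and is known to restrain the translation of Irf7 mRNA. Its brightest probe (ILMN_2717366) read 1327, 1164 and 1360.1 in wild type and 891, 960.3 and 954 in the knockout. All knockout arrays were below the array median and all wild-type arrays above it. The log2 difference was -0.45 ± 0.08 (SE) with a limma adjusted p of 0.0124. A second probe (ILMN_2793464) went the same way without overlap but did not pass (-0.32 ± 0.09 SE, limma adjusted p = 0.110 over all probes), and the third (ILMN_2722380) was dim in both genotypes (889 ± 30.6 and 811 ± 54.1, SD, n = 3 each). Oasl1 was not called without wild type replicate 3 (adjusted p = 0.0769, limma) or without knockout replicate 3 (adjusted p = 0.0615, limma).

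**Figure D1:**
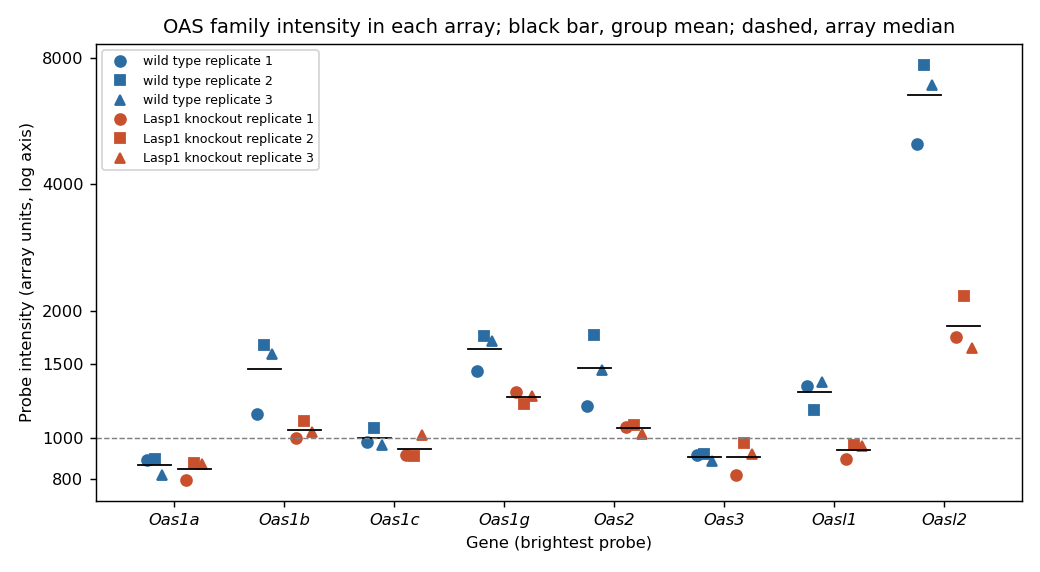
Intensity (array units, log axis) of the brightest probe of each OAS family gene in the 3 wild-type (blue) and 3 Lasp1 knockout (orange) arrays, with symbols for replicate number, black bars for group means and a dashed line at the array median of 1000. The Oasl2 values of 1631 to 2168 in the knockout lie under the wild-type values of 4991 to 7701, while Oas1a, Oas1c and Oas3 overlap near the dashed line.

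Among the Oas1 genes, Oas1g encodes an active synthetase. Its brightest probe (ILMN_1253808) read 1438, 1749.6 and 1695 in wild type and 1285, 1203.5 and 1257 in the knockout. The groups did not overlap, and wild type replicate 1 was again the lowest wild-type array. The log2 difference was -0.38 ± 0.09 (SE), with a limma adjusted p of 0.0382 close to the threshold. The call was lost when any array other than wild type replicate 1 was left out, with limma adjusted p from 0.0653 to 0.180. The annotation gives 4 further Oas1g probes for the same transcript, and 0 of them passed. One of them (ILMN_2628822) lay lower without overlap (1051 ± 50.3 against 932 ± 39.2, SD, n = 3 each), while the other three lay below the array median in group means and overlapped. The mean over the 5 probes gave a log2 difference of -0.16, which did not pass (limma adjusted p = 0.192). Oas1 paralogs are close in sequence and probe sequences were not used here, so reads of one paralog on another's probe were not tested.

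Oas1b is the mouse gene of resistance to flaviviruses, and many laboratory strains, C57BL/6 among them, carry a truncated form. RefSeq lists it as a transcribed pseudogene in its C57BL/6J assembly. At the brighter Oas1b probe (ILMN_2823462) wild type read 1137, 1659 and 1581.5 and the knockout 999, 1095 and 1033. Wild type replicate 1 sat close to the knockout arrays, and the other two wild-type arrays well above them. The log2 difference was -0.47 ± 0.13 (SE), which did not pass (limma adjusted p = 0.0800). Without wild type replicate 1 it was -0.64 and passed (limma adjusted p = 0.00175), beside 6.39% of all genes called lower in that fit. With any other array left out it was -0.50 to -0.36 and did not pass (limma adjusted p from 0.135 to 0.298). The second Oas1b probe (ILMN_2613140) gave -0.34 ± 0.09 (SE), also without overlap and without passing (limma adjusted p = 0.0847 over all probes).

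Oas2, whose protein carries a repeated OAS unit and makes longer oligoadenylates, had 1 probe (ILMN_2670150). It read 1192, 1759 and 1452 in wild type and 1062, 1074 and 1024 in the knockout. The groups did not overlap, and wild type replicate 1 was nearest to the knockout. The log2 difference was -0.46 ± 0.13 (SE) with a limma adjusted p of 0.0691. Without wild type replicate 1 it was -0.60 with a limma adjusted p of 0.00589, beside 6.39% of all genes called lower in that fit. With any other array left out it was -0.47 to -0.32 and did not pass (limma adjusted p from 0.0900 to 0.254).

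Oas1a, Oas1c and Oas3 did not pass (limma adjusted p from 0.694 to 0.992), and their probes lay near or below the array median in both genotypes. Oas1a, an active synthetase, read 886, 889.9 and 816 in wild type and 794, 869.9 and 865 in the knockout (ILMN_2924839). Its 95% interval for the log2 difference in the fit over all probes ran from -0.20 to 0.13. Oas1c, for which synthetase activity was not found in the mouse, read 976, 1056 and 962 against 911, 905 and 1014 (ILMN_2801770), with an interval of -0.25 to 0.09. Oas3, the largest OAS protein, read 909.8, 915.5 and 879 against 817, 972 and 914 at its brighter probe (ILMN_2650991), with an interval of -0.18 to 0.17. The other Oas3 probe (ILMN_1216020) read 892 ± 8.60 and 884 ± 52.8 (SD, n = 3 each). At this brightness the intervals describe the deposited values, in which the share of background light was not measured.

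Over all 18 member probes, 4 passed, all lower in the knockout (2 of Oasl2 and 1 each of Oasl1 and Oas1g), beside 2.50% of all probes called lower. In 10 of the 18 the knockout arrays lay entirely below the wild type, beside 11.5% of all probes. Of the 18, 5 had group means above the array median in both genotypes, 4 in 1 genotype and 9 in neither. The 4 called probes were among the 9 that lay above the array median in a genotype. Set against brightness, the probes under 1000 in wild type ran from -0.16 to -0.0042 on the log2 scale, and the pair of brightest Oasl2 probes gave -1.11 and -1.81. Wild-type level enters both quantities, so this is a description.

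**Figure D2:**
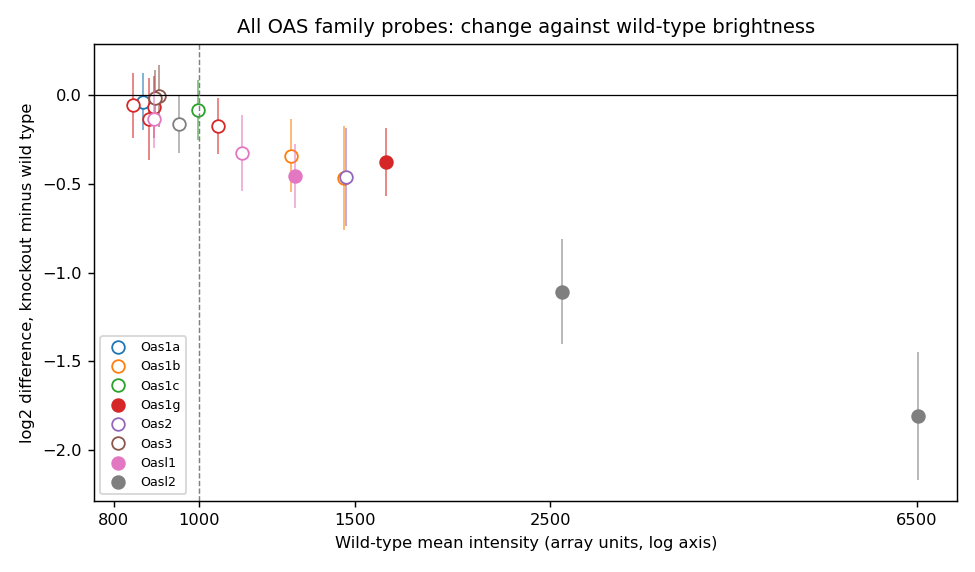
Log2 difference (knockout minus wild type) of each of the 18 OAS family probes against its mean wild-type intensity (log axis), with 95% confidence intervals from limma; filled points passed at an adjusted p under 0.05 over all probes, and the dashed line is the array median of 1000. Probes to the left of the line lie near 0, and the Oasl2 probes at 2579 and 6527 lie at -1.11 and -1.81.

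The difference between members was tested on the log2 ratio of their brightest probes in each array, over 28 pairs. Oasl2 fell further than each of the other 7 members, by 1.34 (against Oas1b) to 1.81 (against Oas3) on the log2 scale, with no overlap of the arrays. Each of these 7 comparisons had an exact two-sided permutation p of 0.1, the smallest that 3 arrays against 3 allow, and 0.156 after adjustment over the 28 pairs, so none could pass. Oasl1, Oas2 and Oas1b gave similar differences over all 6 arrays. Their pairs differed by 0.0058 to 0.012 in log2 difference (exact permutation p from 0.9 to 1), which with 3 arrays against 3 does not show that they are equal. Without wild type replicate 1 they gave -0.43, -0.60 and -0.64. With limma's normexp background correction the log2 differences were larger, at -2.29 for Oasl2, -1.14 for Oasl1, -0.97 for Oas1b, -0.95 for Oas2 and -0.70 for Oas1g. Of these Oasl2 and Oasl1 passed under that correction (limma adjusted p = 0.00121 and 0.00826), and the others did not (0.0816 to 0.108), so the sizes for the dim members are not settled.

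Within each genotype the members also differed in how they varied. Relative to its genotype mean, wild type replicate 1 was lower by 0.36 for Oasl2, 0.34 for Oas1b, 0.28 for Oas2 and 0.17 for Oas1g on the log2 scale. For Oasl1 the same array was 0.05 above its mean, and wild type replicate 2, the highest array for the other 4 genes, was 0.14 below. After the genotype means were removed, the correlation with Oasl2 over the 6 arrays was 0.91 for Oas1b, 0.86 for Oas2, 0.65 for Oas1g and -0.35 for Oasl1, given as a description. The upper quartile of the whole array was lowest among wild-type arrays in replicate 1 (2041) and highest in replicate 2 (2330). In the knockout the lowest upper quartile was in replicate 2 (2018), where Oasl2 was 0.24 above its genotype mean. The highest was in replicate 1 (2283), where Oasl2 was 0.075 lower than its genotype mean. Knockout replicate 3 lay between them (2083) and had the lowest Oasl2, 0.17 below that mean. Oas1g was 0.042 above its genotype mean in knockout replicate 1 and 0.052 below it in knockout replicate 2. The part of the array-wide spread in these deviations was not tested.

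The genes whose pattern was most like that of the family were sought over the 6 arrays, against the mean log2 intensity of the 5 members above the array median in a genotype. The 5 nearest were the interferon-induced GTPase gene Igtp (Pearson r = 0.997), the ADP-ribosyltransferase gene Parp14 (r = 0.996), the ubiquitin-like modifier Isg15 (r = 0.996), the antiviral gene Ifit3 (r = 0.995) and the pseudogene Cyp4b1-ps2 (r = 0.995). With genotype means removed their r was 0.954 to 0.983. Of 498 candidate genes, 122 had an r over 0.95, so a high value over 6 arrays in 2 genotypes is common. Oasl1 entered this mean through its wild-type arrays alone, and the genotype difference of the members is part of the profile, so the likeness in large part restates that difference.

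A list of OAS pathway partners was next examined, which also holds the paralogs Oas1d, Oas1e, Oas1f and Oas1h. Of its 7 measured genes, limma called 0, and 0 had an unadjusted p under 0.05. Abce1, a ribosome recycling factor, gave 1377 ± 122.6 and 1440 ± 234 (SD, n = 3 each). Pde12, whose protein degrades oligoadenylates, gave 5912 ± 345 and 6127 ± 480 (SD, n = 3 each), with a log2 difference of 0.05 and a 95% interval of -0.14 to 0.24. Akap7, whose protein can also cleave oligoadenylates, gave -0.07 with an interval of -0.27 to 0.12. The remaining Oas1 paralogs Oas1d, Oas1e, Oas1f and Oas1h read close to the array median or below it in both genotypes, with log2 differences of -0.05 to 0.09.

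Upstream of the family, no interferon gene was called. Of 12 measured interferon ligand genes, limma called 0, with 0 at an unadjusted p under 0.05, and 4 had a group mean above the array median. Ifnb1, the interferon that fibroblasts are known to make first on infection, read 846 ± 98.8 in wild type and 844 ± 72.9 in the knockout (SD, n = 3 each). These values lie below the array median, where a change could go undetected. Ifnab, which was brighter, read 2013 ± 147 and 1931 ± 149 (SD, n = 3 each), with a log2 difference of -0.06 and a 95% interval of -0.26 to 0.14.

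Some genes of the response to interferon fell. Of 8 measured receptor signalling genes 3 fell and 0 rose, beside 4.08% of all genes called lower. Usp18, the protease that removes Isg15 and damps the receptor, read 9433, 14931 and 14328 in wild type and 3624, 3779 and 3042 in the knockout (-1.87 ± 0.17 SE, limma adjusted p = 0.000287). Stat2 and Irf9, which are part of the complex that binds the response element, fell by 0.63 ± 0.15 and 0.63 ± 0.11 (SE) on the log2 scale, with limma adjusted p of 0.0390 and 0.0111. Stat2 was not called without wild type replicate 3 or any of the knockout arrays (limma adjusted p at most 0.192 over all alternatives). Irf9 was not called without wild type replicate 3 or knockout replicate 3 (limma adjusted p at most 0.0776 over all alternatives). The count was then 1 without either replicate 3, beside 1.60% (wild type) and 1.28% (knockout) of all genes called lower. The receptor subunit Ifnar2 and the kinases Jak1 and Tyk2 did not pass, with log2 differences of 0.07, -0.14 and 0.19. Of 7 measured interferon regulatory factors 1 fell. This was Irf7, the factor that amplifies interferon production, from 3361 ± 929 to 1480 ± 125 (SD, n = 3 each; -1.15 ± 0.17 SE, limma adjusted p = 0.00438).

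Other genes of double-stranded RNA sensing, not all of them sensors themselves, were examined beside the family. Of 10 measured, 3 fell and 0 rose, beside the same 4.08%, and 4 were lower at an unadjusted p under 0.05, beside 13.0% of all genes. Dhx58, the sensor LGP2, read 3029, 5855 and 5009.7 in wild type and 2129, 1947 and 2065 in the knockout (-1.13 ± 0.20 SE, limma adjusted p = 0.0116). Trim25, a ubiquitin ligase that acts on the sensor RIG-I, fell by 0.68 ± 0.13 (SE) and Ddx58, which encodes RIG-I, by 0.49 ± 0.07 (SE) on the log2 scale, with limma adjusted p of 0.0175 and 0.00360. With the mean of all its probes Ddx58 gave -0.18 and did not pass (limma adjusted p = 0.147), and Dhx58 and Trim25 gave -0.68 and -0.39 and passed. Leaving out wild type replicate 1 gave 5 falls, beside 6.39% of all genes called lower. Leaving out knockout replicate 2, knockout replicate 3 or wild type replicate 3 gave 1, beside 1.77%, 1.28% and 1.60%. Eif2ak2, the kinase PKR, which shares its ligand with OAS, lay lower in every knockout array without passing (-0.47 ± 0.13 SE, limma adjusted p = 0.0676).

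Of 15 other interferon-induced antiviral genes 10 fell and 0 rose, with a median log2 difference of -0.66. The share of all genes called lower was 4.08%, and of the 11985 genes brighter than the median of all probes it was 6.47%. Isg15 had the largest fall (-1.95 ± 0.21 SE), and Ifit3 (-1.51 ± 0.15 SE), Parp14 (-1.14 ± 0.16 SE), the GTPase gene Mx2 (-1.14 ± 0.20 SE), the tether Bst2 (-0.98 ± 0.23 SE) and Ifit2 (-0.84 ± 0.09 SE) followed. With the mean of its 3 probes Parp14 gave -0.42 and did not pass (limma adjusted p = 0.0534). Ifitm3, the brightest gene of the list, overlapped between genotypes and did not pass (-0.17 ± 0.10 SE, limma adjusted p = 0.433). At the brightest probes the log2 difference of Oasl2 lay between those of Isg15 and Ifit3. Leaving out knockout replicate 3 left 6 falls, beside 1.28% of all genes called lower. Bst2 was not called without wild type replicate 3 or any of the knockout arrays (limma adjusted p at most 0.193 over all alternatives), nor Mx2 without wild type replicate 3 or knockout replicate 3 (limma adjusted p at most 0.0730). The pathway lists were chosen with earlier results known, so these counts are no independent evidence of a direction.

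**Figure D3:**
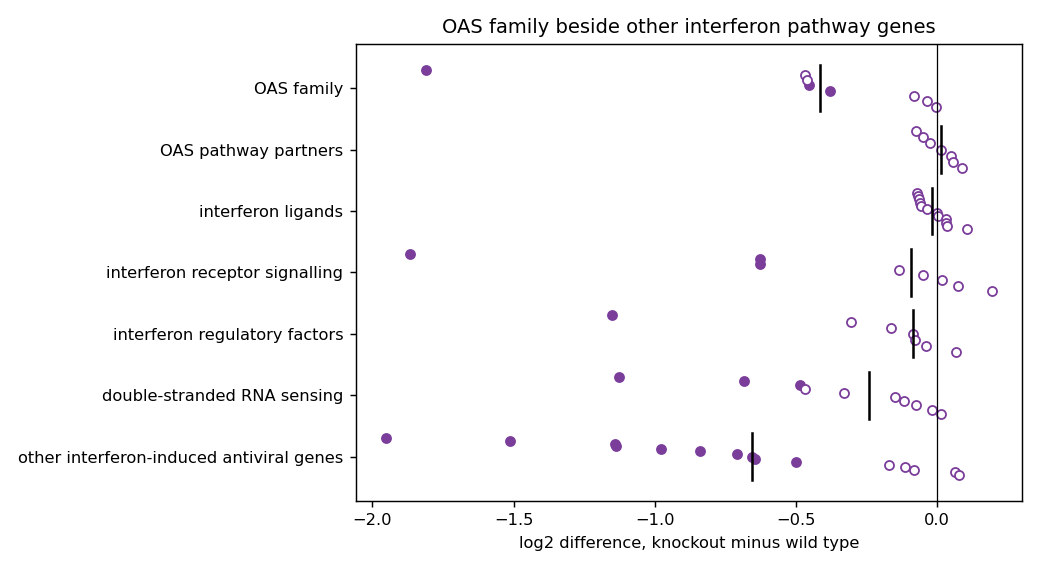
Log2 difference (knockout minus wild type) of each measured gene in the OAS family and in 6 related lists; filled points passed limma at an adjusted p under 0.05 over all genes, and black bars are list medians. The members of the OAS family (median -0.42) and the other interferon-induced genes (median -0.66) lie to the left. The interferon ligands and the pathway partners, which include the dim paralogs Oas1d, Oas1e, Oas1f and Oas1h, lie near 0.

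Around the family on the chromosome, limma called 0 of the 12 nearest measured protein-coding genes (3 on each side of the Oasl pair and 3 on each side of the Oas cluster). One of them, 2210016L21Rik, had an unadjusted p under 0.05 (0.0197, log2 difference -0.39 ± 0.14 SE, limma adjusted p = 0.155). Between the Oasl pair and the Oas cluster lay 53 measured protein-coding genes, of which 1 fell and 2 rose, near the shares over all genes (4.08% and 2.19%), with a median of -0.02. Inside the cluster, Oas1g (called) and the dim Oas1a and Oas1h are neighbours in the gene table.

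**Figure D4:**
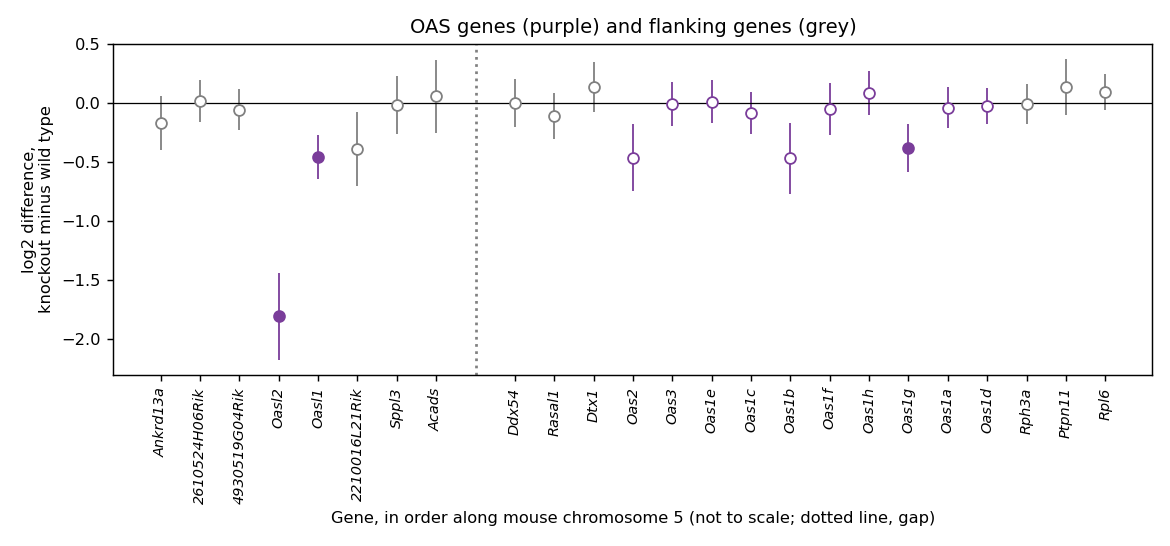
Log2 difference (knockout minus wild type) with 95% confidence interval for OAS genes (purple) and their nearest measured protein-coding neighbours (grey), in order along mouse chromosome 5 and not to scale; filled points passed limma at an adjusted p under 0.05 over all genes. Oasl2 at -1.81, Oasl1 at -0.45 and Oas1g at -0.38 are filled, and all 12 neighbours are open.

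Markers of cell types moved as well. Of 8 fibroblast markers all were above the array median, and 3 fell (Col1a2, Pdgfrb and Thy1). The share of all genes called lower was 4.08%, and of the genes brighter than the median of all probes it was 6.47%. The summed intensity of all 8 fibroblast markers was 720910 to 806784 in wild type and 577270 to 615616 in the knockout. None of the 3 called fibroblast markers was called when knockout replicate 2, knockout replicate 3 or wild type replicate 3 was left out (limma adjusted p at most 0.201 over all alternatives). Of 6 epithelial markers the keratins Krt14 and Krt8 fell, beside the same shares. The sums over all 6 were 20052 to 25092 in wild type and 8144 to 8354 in the knockout. Most of the wild-type sum came from Krt14 (15557 ± 2617 against 2565 ± 29.0, SD, n = 3 each). Krt18 lay higher in every knockout array without passing (log2 difference 0.18 ± 0.08 SE, limma adjusted p = 0.247), and the defining markers Epcam and Cdh1 read near the array median. Of 8 measured macrophage and leukocyte markers Lyz2 rose and 0 fell, beside 2.19% of all genes called higher. Their sums were 11326 to 12618 in wild type and 14408 to 15439 in the knockout. The largest rises in mean were of Lyz2 (3772 ± 471 to 5535 ± 231) and Cd14 (1822.5 ± 201 to 2320 ± 175.5), SD, n = 3 each. Cd14 did not pass (limma adjusted p = 0.0771). Without knockout replicate 3 Lyz2 was not called (limma adjusted p at most 0.0756 over all alternatives). The pan-leukocyte marker Ptprc read 878 ± 19.6 and 924 ± 50.9 (SD, n = 3 each), below the array median. Of 4 endothelial markers limma called 0, with 2 at an unadjusted p under 0.05, and sums of 4882 to 5436 and 4771 to 4904. The part of any of these cell types in the OAS differences was not tested.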

How the data were processed

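The authors deposited probe intensities on a linear scale (593 to 557143 over 45281 probes), with each array at a median of 1000. Total RNA was converted to biotinylated cRNA for Illumina arrays, per the labels' protocols; the scanner, background handling and bead summary are not given in the labels. Names came from the supplied platform annotation (34885 probes with 1 symbol, 18 with several, 10378 with none). After log2 transformation limma 3.58.1 (R 4.3.3) was fitted to the 6 arrays with a single genotype term, over 19057 genes at their brightest probe and, separately, over all probes, with Benjamini-Hochberg adjustment and a threshold of 0.05. Gene results use the first fit and further probes the second, as marked. Members and lists were chosen with earlier results of these data known. Named were all members, all pathway partners, at most 6 called genes per other list, the 5 most alike genes, Lasp1 and up to 3 flanking genes a side. Uncalled or marker genes outside this rule (Ifnb1, Ifnab, Ifnar2, Jak1, Tyk2, Eif2ak2, Ifitm3, Ptprc and the other named markers) were chosen after their values were seen. Promoter sequences are from RefSeq, GRCm38.p6. The alternatives were array weights, quantile normalization, normexp background correction (offset 50), a brightness filter, trend with robust estimation in eBayes (statmod 1.5.0), averaging a gene's probes, blocking on replicate number, and dropping each array in turn.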

Additional observations from a re-analysis of the deposited data

How the results depend on the processing

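Oasl2 was called lower under all 13 alternatives (log2 difference -2.29 to -1.03), and Oasl1 under 10 of them. The number of called OAS genes, 3 as deposited beside 4.08% of all genes called lower, was 5 after quantile normalization (5.68%), 5 with trend and robust estimation (4.05%), 5 with array weights (12.0%), 2 after background correction (1.66%), 2 with the mean of all probes (3.33%) and 1 to 5 with an array left out (5 without wild type replicate 1, beside 6.39%, and 1 without wild type replicate 3 or knockout replicate 3, beside 1.60% and 1.28%). The number of called probes was 4 as deposited (2.50% of all probes called lower). It was 7, 8 and 8 under the first 3 of these (3.51%, 2.27% and 4.93%) and 3 after background correction (0.579%). With an array left out it was 2 to 7, with 7 without wild type replicate 1 (3.40%). It was 2 without knockout replicate 2, knockout replicate 3 or wild type replicate 3 (0.987%, 0.757% and 0.936%). Oas1b (-0.45, -0.47 and -0.55) and Oas2 (-0.44, -0.46 and -0.47) passed under quantile normalization, trend and robust estimation, and array weights. Background correction moved the median of the members from -0.42 to -0.82 and the mean of all probes moved it to -0.23. Oas1g was not called under either (-0.70 and -0.16). With array weights Oas1a and Oas3 turned positive (0.033 and 0.036), without a call. With an array left out the ranges were -0.076 to 0.0067 for Oas1a, -0.64 to -0.36 for Oas1b, -0.46 to -0.32 for Oas1g, -0.60 to -0.32 for Oas2, -0.061 to 0.065 for Oas3 and -0.52 to -0.41 for Oasl1. The cause of these changes was not tested. Falls over all alternatives numbered 1 to 5 among the genes of double-stranded RNA sensing, 1 to 3 in receptor signalling and 1 to 2 among regulatory factors. They numbered 6 to 10 among other interferon-induced genes and 0 to 6 among fibroblast markers. Of all genes, 1.24% (replicate block) to 12.0% (array weights) were called lower. Rises among leukocyte markers numbered 0 to 2, beside 179 to 1009 of all genes called higher, and falls among endothelial markers 0 to 1.

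The arrays share replicate numbers across genotypes, but same-numbered arrays did not consistently deviate together (correlations of -0.41, -0.34 and 0.22 over 11985 genes). Differently numbered arrays gave 0.47 (wild type replicate 2 with knockout replicate 1) and 0.40 (wild type replicate 1 with knockout replicate 2). The remaining pairs gave -0.15 to 0.0082. With the replicate block the number of called genes was 1 (1.24% of all genes called lower) and of probes 2 (0.729%), and Oas1g (-0.38) and Oasl1 (-0.45) kept their size and were not called. Low brightness limits what can be read for Oas1a, Oas1c and Oas3, whose probes lay near or below the array median.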
